A study of Mus musculus with 4 samples.

Results

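The genes described here encode the nuclear receptors for thyroid hormone (Thra, Thrb), their retinoid X receptor partners (Rxra, Rxrb, Rxrg), the type 2 deiodinase that supplies hormone inside cells (Dio2) and the nuclear receptor corepressor Ncor1. They were examined through open chromatin in mouse muscle. Their peaks were selected by gene name: each peak that the authors' annotation assigned to one of the 7 genes was taken, whatever its distance, which gave 87 of the 120839 peaks in the 4 lists analysed. By muscle these were 22 of 30136 peaks in EDL and 29 of 40337 in Quad, with 21 of 28784 in Sol and 15 of 21582 in Dia. Joining peaks of different lists that shared at least 1 bp gave 45 of 53883 merged regions, and the 7 genes were among 17157 genes with a peak in any list. The group was proposed with peak counts of these muscles in view, and the difference between Sol and Quad at Thrb was among the values known, so that difference is described and not tested.

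The lists come from ATAC-seq, in which the transposase Tn5 cuts and tags DNA wherever chromatin is accessible. The 4 groups were a pair of mainly fast-twitch limb muscles, extensor digitorum longus (EDL) and quadriceps (Quad), the slow-twitch soleus (Sol), and the diaphragm (Dia). All came from wild type mice kept sedentary, C57BL/6 by the labels, and no group carried a transgene or a treatment. The study's methods give male C57BL/6J mice that were young adults when bought, the labels add no age, and each library is labelled as pooled without the number of animals. The tissue was whole muscle that had been frozen and powdered, so nuclei of every cell type in it could contribute. With 1 library analysed per muscle there was no replicate spread, no test between muscles was possible, and each difference below describes these libraries.

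Thyroid hormone receptors sit on DNA mainly as heterodimers with retinoid X receptors, on a pair of AGGTCA half-sites arranged as a direct repeat. Without hormone they recruit corepressor complexes built on proteins such as NCOR1, and with triiodothyronine they exchange these for coactivators. Type 2 deiodinase makes triiodothyronine from thyroxine within the tissue. In skeletal muscle, thyroid hormone is known to favour fast myosins and rapid calcium uptake, and its lack to favour slow ones. Retinoid X receptors also pair with the retinoic acid, vitamin D, liver X and peroxisome proliferator-activated receptors.

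The lists differed in length, threshold and depth. Depth was read from the steps between scores, on the assumption that scores are scaled to 10 M tags. The steps gave between 78.1 M tags (Quad) and 105 M tags (Sol), and the lowest-scored peak of a list then held between 25 and 36 tags. Peaks were 188 bp (Quad) to 232 bp (Dia) wide, measured as end minus start. Because the lists were of unequal length, counts are also given with each list cut to its top 20000 peaks by score, and a peak's strength is given as its score percentile, its rank from below as a percent of its own list. A peak absent from a list means that none was called there, not that the DNA was closed. Of 10 skeletal muscle marker genes, 7 had a promoter peak in EDL and 7 in Quad, with 6 in Sol and 3 in Dia, and Myh7 and Tnni1 had none in any list. Of 21 markers of endothelium, fibroblasts, smooth muscle, immune, satellite, fat and Schwann cells, 4 had one in EDL and 6 in Quad, with 4 in Sol and 1 in Dia. Their summed promoter percentiles were 163, 222, 155 and 48.7 in the same order. Most of these promoter peaks were at endothelial markers. All 4 endothelial markers had one in Quad, 3 had one in Sol, 3 in EDL and 1 in Dia. Of 3 smooth muscle markers, 2 had one in Quad and 1 in EDL, and of 4 fibroblast markers 1 had one in Sol. The immune, satellite, fat and Schwann cell markers had no promoter peak in any of the 4 lists. The part of all these other cell types in the counts below was not tested.

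Thrb and Rxra held most of the peaks, and the list with the most peaks differed between these genes. Thrb had 27 of the 87 peaks, of which 11 were in the Sol list, 6 in Quad, 5 in EDL and 5 in Dia. Rxra had 25 peaks, of which 11 were in Quad, 7 in EDL, 4 in Dia and 3 in Sol. The Sol list was thus the highest for Thrb and the lowest for Rxra. With 20000 peaks per list Thrb kept 6 peaks in Sol, 4 each in EDL and Dia and 1 in Quad, and Rxra 9 in Quad, 6 in EDL and 3 each in Sol and Dia. Rxrg followed with 4 peaks in EDL and 5 in Quad, with 2 in Sol and 2 in Dia. Dio2 had 3 peaks in EDL and 4 in Quad, with 2 in Sol and 2 in Dia. The remaining genes had few peaks: 1 in each list for Rxrb, 1 in each list and 1 more in Sol for Ncor1, and 1 each in EDL and Quad for Thra.

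More peaks were listed in Sol than in Quad for 2 of the 7 genes, Thrb and Ncor1, beside 13% of the 16456 genes with a peak in either list. More peaks were listed in Quad than in Sol for 4 of the 7, Thra, Rxra, Rxrg and Dio2, beside 47.6% of all genes. With 20000 peaks per list, more were listed in Sol for Thrb alone, 1 of 7 genes, beside 23.3% of 12866 genes. At the same list length more were listed in Quad for Thra, Rxra and Rxrg, 3 of 7 genes, beside 23% of all. Nothing is read from these shares, since the counts of Sol and Quad entered the choice of the genes.

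**Figure D1:**
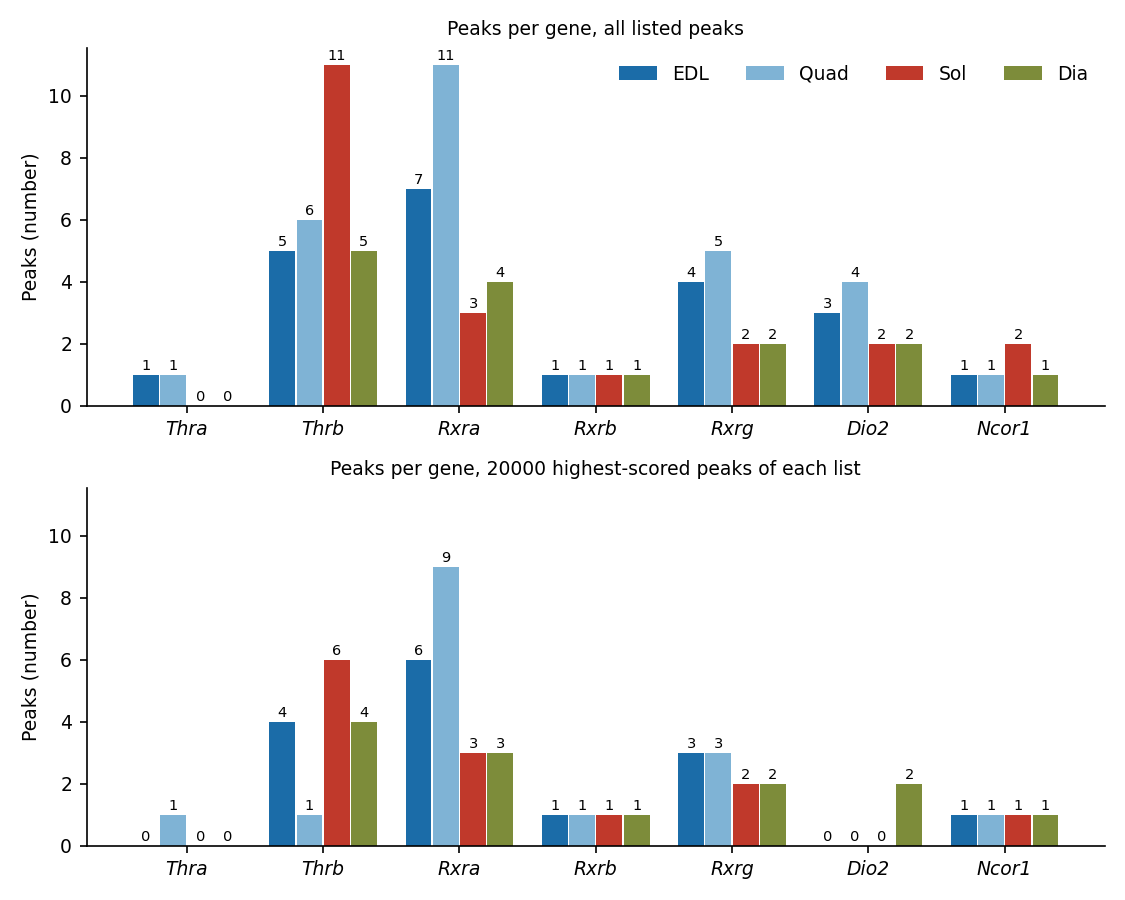
Number of peaks (vertical axis) named for each of the 7 genes in EDL, Quad, Sol and Dia, counting every listed peak (upper panel) or the top 20000 by score from each list (lower panel), 1 library per bar and no error bars. Thrb has its tallest bar in Sol (11, then 6) and Rxra in Quad (11, then 9), and at Dio2 only Dia keeps peaks (2) in the lower panel.

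The receptor gene Thra, which gives the main thyroid hormone receptor of skeletal muscle, had the fewest peaks. Its gene body spans chr11:98740638-98769006 on the forward strand (GRCm38.p6, the assembly behind mm10; gene bodies from GENCODE). The Quad list held a peak in intron 1, at 5694 bp from the annotated transcription start site (TSS), at percentile 71.2. The EDL list held a different peak in intron 2, at 13352 bp and percentile 33.0, and it was not among the 20000 highest-scored. These peaks lay 7.46 kb apart and shared no base, so no Thra region was found in more than 1 muscle. No peak named for Thra was listed in Sol or Dia. From the Thra TSS the nearest peak of any gene lay 5.60 kb away in Quad, and in the other lists it was the peak named for the neighbour Med24, 12.2 kb away in Sol and Dia and 12.3 kb in EDL.

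Thrb gives the beta receptor, and its gene body is the longest of the 7, 378 kb at chr14:17660261-18038090 on the forward strand. RefSeq variant 1 starts near the 5′ end, and variant 2 starts deep inside, so the authors' distances are measured to whichever start is nearer; positions below are counted from the start of the gene body to the middle of a peak. Over the gene body the Sol list held 2.91 peaks per 100 kb, beside 1.06 per 100 kb of the genome in that list. The corresponding densities in the gene were 1.32 in EDL, 1.32 in Quad and 1.06 in Dia, beside 1.11, 1.48 and 0.791 for the genome. In Sol the gene body was more densely covered than that list's genome average, whereas in Quad it was slightly less so. These densities rest on peak counts that were known when the genes were chosen, so nothing is read from them.

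The 27 Thrb peaks formed 16 regions, of which 1 was found in all 4 muscles, 6 in 2 or 3 muscles and 9 in 1 muscle, beside 26.9%, 30.5% and 42.6% of all merged regions. The region common to all 4 was the promoter of variant 1. Its score, per 10 M tags with a 95% counting interval from the inferred tags, was 13.5 (11.3 to 15.9) in EDL and 19.3 (16.4 to 22.7) in Quad, with 14.1 (11.96 to 16.6) in Sol and 14.4 (12.1 to 17.0) in Dia. These correspond to percentiles 86.0, 94.5, 87.5 and 85.9. The highest promoter score was in Quad, and its interval lay above that of EDL and overlapped those of Sol and Dia. These intervals cover counting error only, and the peak in Quad was also the narrowest.

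The 10 other Thrb peaks of the Sol list were all intronic. By the authors' intron numbers, 4 were in intron 1 of variant 1, between 37.9 kb and 87.8 kb. A further group lay near 242 kb, 253 kb and 267 kb, and the rest at 307 kb, 360.5 kb and 369 kb. Their percentiles ran from 3.33 to 46.9, all in the lower part of the Sol list. Only the promoter peak was in the upper 50% of that list by score, and in that upper part Thrb had 1 peak in EDL and 1 in Quad, with 1 in Sol and 2 in Dia. The excess in Sol was thus made of peaks in the lower 50% of its list. The cut at 50% was not the same score in each list, 7.17 in Sol and 6.53 in Quad. With 20000 peaks per list Thrb had 6 peaks in Sol and 1 in Quad. Among peaks within 50 kb of the assigned TSS the counts were equal, with 5 in Sol and 5 in Quad.

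In 8 of the 11 regions with a Sol peak no Quad peak was listed, beside 24.4% of all regions with a Sol peak, and nothing is read from this count, since the contrast entered the choice of the genes. The Sol scores there ran from 3.82 to 6.69 with a median of 5.54, or 40 to 70 inferred tags. The lowest score in the Quad list was 3.20, so scores of this size were within the range of that list, but 25 tags made up that score and the Quad library was shallower. The nearest Quad peak lay between 1.96 kb and 73.4 kb away, with a median of 23.1 kb. Of these 8 regions 5 held no peak of any other list, 1 was shared with EDL, 1 with Dia, and 1, at 242 kb, with both. The region at 83.1 kb was 43 bp short of touching a Dia peak at percentile 32.7, so the limit of 1 bp overlap decided that it counts as found in Sol alone.

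The region at 242 kb was the strongest intronic one in Dia, at percentile 56.0, and its percentile was 40.9 in EDL and 33.4 in Sol. A Quad peak at percentile 41.8 lay 1.96 kb further into the gene and was not joined to it. The region at 369 kb, the last before the 3′ end, was found in EDL, Quad and Sol at percentiles 39.6, 43.4 and 46.9 and was not listed in Dia. At 307 kb Quad and Sol shared a weak region at percentiles 15.0 and 11.4, which was the nearest to the start of variant 2, 14.0 kb from it in Quad and 14.1 kb in Sol. In EDL and Dia the nearest peak to that start was 47.6 kb and 53.9 kb away. Outside the gene body, a region 27.9 kb before the TSS was listed in Quad at percentile 40.0 and in Dia at 13.2. Peaks found in 1 list other than Sol were those of Quad at 14.2 kb (percentile 32.4) and 244 kb, of EDL at 214.5 kb (15.4) and of Dia at 82.9 kb.

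**Figure D2:**
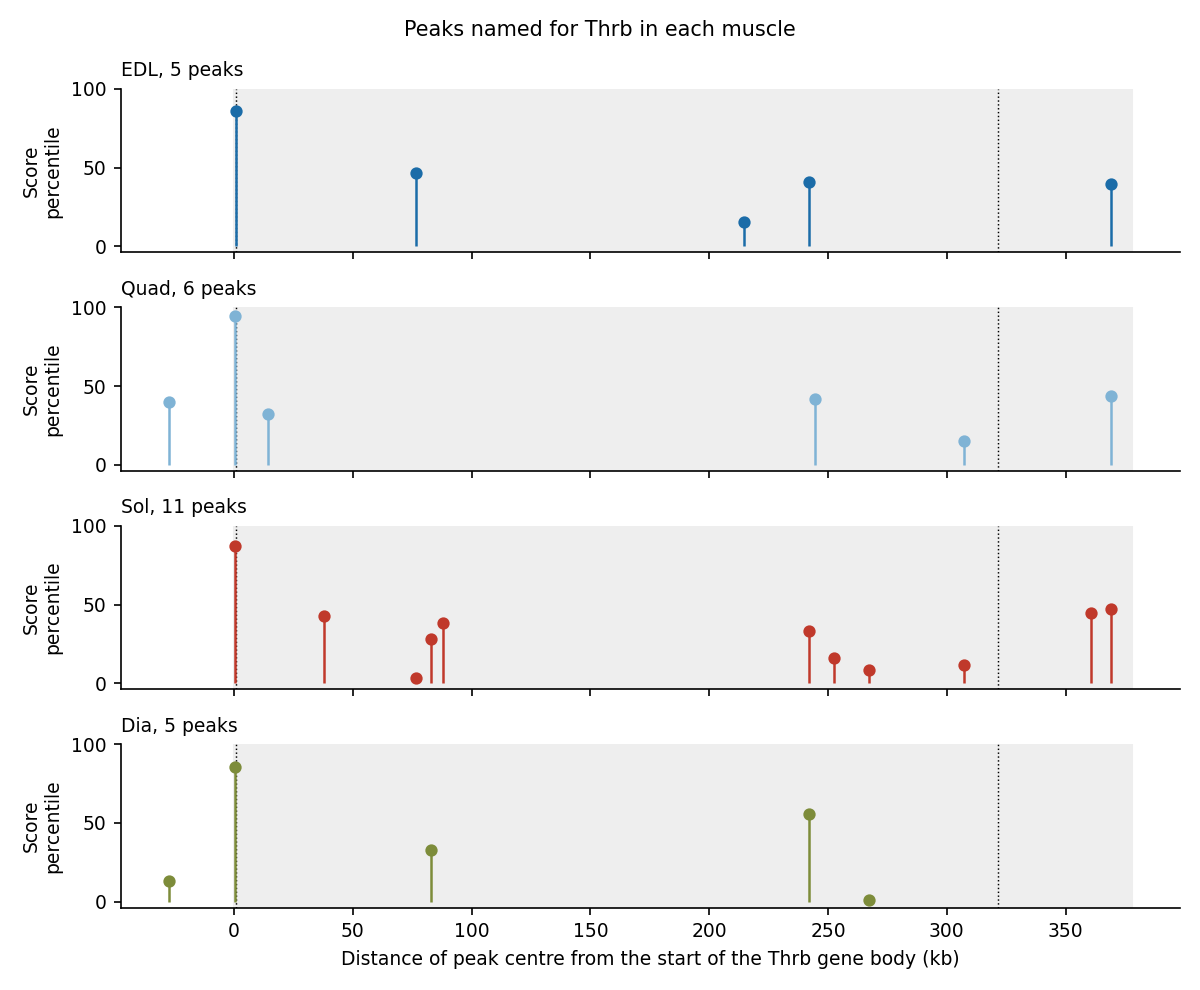
Peaks named for Thrb in EDL, Quad, Sol and Dia (1 panel each), at the distance of the peak centre from the start of the gene body (horizontal axis, kb) and with their score percentile within the list (vertical axis). The grey band is the gene body, dotted lines are the RefSeq starts of variants 1 and 2, and the 11 Sol peaks include 10 below percentile 50 spread from 37.9 kb to 369 kb.

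The sequences of the 8 Sol peaks without a Quad peak are given because they carry the difference between the lists at Thrb. They are read 5′ to 3′ on the forward strand of GRCm38.p6 and overlap no annotated exon. Capitals mark the searched motifs on either strand: the nuclear receptor half-site AGGTCA, the motif of the MEF2 family, the E-box form CAGCTG known for myogenic factors such as MyoD, the letters TGANTCA, which take in the AP-1 site but are wider than it, and the letters TGGAAA known for NFAT.
Thrb 37.9 kb, chr14:17698022-17698228: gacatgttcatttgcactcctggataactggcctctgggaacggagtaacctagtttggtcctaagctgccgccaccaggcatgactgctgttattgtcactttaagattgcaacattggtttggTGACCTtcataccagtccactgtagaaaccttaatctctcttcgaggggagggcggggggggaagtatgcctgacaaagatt
Thrb 76.5 kb, chr14:17736692-17736898: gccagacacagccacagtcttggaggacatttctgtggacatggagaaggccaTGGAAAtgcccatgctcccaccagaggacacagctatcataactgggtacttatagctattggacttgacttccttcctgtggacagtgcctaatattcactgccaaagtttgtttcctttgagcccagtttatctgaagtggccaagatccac
Thrb 83.1 kb, chr14:17743282-17743488: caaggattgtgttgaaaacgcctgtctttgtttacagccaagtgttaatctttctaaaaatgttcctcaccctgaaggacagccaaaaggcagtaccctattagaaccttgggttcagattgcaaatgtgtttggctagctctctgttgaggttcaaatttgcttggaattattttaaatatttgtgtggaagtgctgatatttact
Thrb 87.8 kb, chr14:17747937-17748143: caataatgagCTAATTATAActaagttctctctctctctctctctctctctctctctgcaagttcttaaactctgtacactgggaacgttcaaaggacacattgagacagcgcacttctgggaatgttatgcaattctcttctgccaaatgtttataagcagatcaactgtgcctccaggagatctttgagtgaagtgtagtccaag
Thrb 242 kb, chr14:17902402-17902608: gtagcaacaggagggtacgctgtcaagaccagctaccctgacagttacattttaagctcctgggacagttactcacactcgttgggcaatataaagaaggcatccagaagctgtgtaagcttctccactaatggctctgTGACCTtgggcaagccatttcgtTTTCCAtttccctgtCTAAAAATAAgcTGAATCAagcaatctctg
Thrb 253 kb, chr14:17912807-17913013: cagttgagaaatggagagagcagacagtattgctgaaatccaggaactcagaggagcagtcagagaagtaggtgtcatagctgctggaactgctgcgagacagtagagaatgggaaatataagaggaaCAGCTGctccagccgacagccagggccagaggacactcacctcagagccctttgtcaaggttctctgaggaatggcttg
Thrb 267 kb, chr14:17927514-17927720: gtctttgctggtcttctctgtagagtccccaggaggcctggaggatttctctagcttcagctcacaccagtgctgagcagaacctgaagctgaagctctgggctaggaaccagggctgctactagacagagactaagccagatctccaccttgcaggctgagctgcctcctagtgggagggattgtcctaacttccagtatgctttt
Thrb 360.5 kb, chr14:18020636-18020842: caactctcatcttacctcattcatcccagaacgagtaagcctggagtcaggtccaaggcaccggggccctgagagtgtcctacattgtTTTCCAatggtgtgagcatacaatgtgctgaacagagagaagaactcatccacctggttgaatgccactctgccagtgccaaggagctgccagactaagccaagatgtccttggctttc
A half-site, in each case reading TGACCT on this strand, was present in 2 of the 8 peaks, those at 37.9 kb and 242 kb. The peak at 242 kb also held the NFAT letters in reverse at base 163, a MEF2 match at base 178 and TGAATCA at base 190. MEF2 names a family of muscle transcription factors, and a further match to its motif lay at base 11 of the peak at 87.8 kb. The peak at 253 kb held the E-box form, and those at 76.5 kb and 360.5 kb held TGGAAA or its complement. The peaks at 83.1 kb and 267 kb held none of the searched letters. The EDL peak of the region at 76.5 kb held a half-site, which the Sol peak did not. Of all regions without a promoter peak, 18.0% held the half-site in their best-scored peak and 4.60% a MEF2 match. There CAGCTG was in 22.4%, TGGAAA in 20.6% and TGANTCA in 11.1%. Nothing is read from the matches in these 8 peaks. A match is a description of letters and shows no binding.

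Of the retinoid X receptor genes, Rxra had the most regions, 13, over a gene body of 86.5 kb at chr2:27676440-27762957 on the forward strand. Of the 11 Quad peaks, 7 lay within the gene body, as did 4 of 7 in EDL, 3 of 3 in Sol and 2 of 4 in Dia. The rest were annotated as intergenic, most of them downstream, at up to 117 kb from the start. The gene body density was 8.09 peaks per 100 kb in Quad, 4.62 in EDL, 3.47 in Sol and 2.31 in Dia. All 4 densities were above the average of the genome in the respective list. That average takes in the DNA between genes, and no average over gene bodies was computed.

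The same 2 intronic Rxra regions were listed in all 4 muscles. The first, in intron 2 at 64.0 kb, had scores of 10.7 (8.79 to 12.9) in EDL and 10.4 (8.24 to 12.9) in Quad, with 8.12 (6.49 to 10.1) in Sol and 7.96 (6.30 to 9.92) in Dia. The second, in the last intron at 82.1 kb, was at percentiles 59.5, 75.2, 63.9 and 48.7 in the same order. A region in intron 1 at 23.3 kb was found in EDL at percentile 68.4, in Quad at 76.4 and in Sol at 69.9, and was not listed in Dia. These are the 3 Rxra peaks of the Sol list, so each Sol peak at this gene was shared. At 64.0 kb the counting intervals of the 4 muscles overlapped.

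Regions found in Quad without the other muscles were 5 of the 13, beside 22.7% of all merged regions. They lay at 35.7 kb before the TSS and at 14.5, 27.9, 69.8 and 98.0 kb, with percentiles of 15.0, 60.1, 64.9, 50.8 and 53.3. The one at 98.0 kb ended 2 bp before an EDL peak at percentile 38.3. Of these 5, 4 were above the middle of the Quad list, and 9 of the 11 Quad peaks were in its upper 50%. In the upper 50% of their own lists EDL had 4, Sol 3 and Dia 1. The 8 Sol peaks at Thrb without a Quad peak were below the middle of the Sol list. The middle is a score of 6.53 in Quad and 7.17 in Sol, so these positions do not compare strength between the lists. EDL and Quad shared a region at 58.3 kb at percentiles 49.7 and 57.9. EDL, Quad and Dia shared one at 109.7 kb at percentiles 55.2, 52.1 and 1.53, and Quad and Dia one at 88.7 kb at 43.4 and 46.4. The last EDL peak, at 117 kb, was at percentile 8.31.

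The Quad peak at 27.9 kb was the only one of the best-scored peaks of the 45 regions to hold a direct repeat of the half-site, in inexact form, with 4 bases in between, the arrangement known for thyroid hormone receptors with retinoid X receptors. Up to 2 mismatches over both half-sites were allowed. A repeat with 1 base between was found in 2 regions, the Thrb promoter and the Thrb region at 369 kb. The sequences of the last and of the Rxra peak were chosen after the matches were seen and are shown with the same marks, the whole repeat in capitals.
Rxra 27.9 kb, chr2:27704242-27704430: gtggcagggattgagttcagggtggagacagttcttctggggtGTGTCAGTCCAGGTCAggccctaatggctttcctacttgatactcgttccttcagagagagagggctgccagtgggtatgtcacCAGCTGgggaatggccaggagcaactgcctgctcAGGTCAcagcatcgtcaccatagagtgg
Thrb 369 kb, chr14:18029224-18029430: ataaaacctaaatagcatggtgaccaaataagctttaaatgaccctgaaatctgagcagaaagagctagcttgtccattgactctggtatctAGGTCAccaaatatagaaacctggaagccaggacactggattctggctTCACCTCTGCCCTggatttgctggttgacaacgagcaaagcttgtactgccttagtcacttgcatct
In the Rxra peak the repeat begins at base 44 and its downstream member is an exact half-site at base 54, with a further exact half-site at base 162 and CAGCTG at base 128. The upstream member of that repeat, GTGTCA, carries both of the allowed mismatches. In the Thrb peak, taken from Sol, the repeat begins at base 141 on the opposite strand and a separate exact half-site lies at base 93.

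Rxrb, which gives the beta partner, had a single region, its promoter, in all 4 lists. Its gene body is short, 6.59 kb at chr17:34031812-34038399. The scores were 17.0 (14.6 to 19.7) in EDL and 16.1 (13.4 to 19.2) in Quad, with 13.3 (11.2 to 15.7) in Sol and 13.9 (11.7 to 16.4) in Dia. The percentiles were 92.3, 91.1, 85.3 and 84.6, the highest of all members in EDL. EDL and Quad were above Sol and Dia, with intervals that overlapped.

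Rxrg gives the gamma partner, which is known for its expression in skeletal and heart muscle. Its gene body covers 41.2 kb at chr1:167598384-167639623. RefSeq gives it an outer start, variant 1, and an inner one, variant 2, 19.9 kb downstream, and each had a region listed in all 4 muscles. The inner start had the higher scores: 14.9 (12.7 to 17.4) in EDL and 11.0 (8.81 to 13.6) in Quad, with 10.3 (8.47 to 12.5) in Sol and 10.2 (8.29 to 12.4) in Dia. The EDL interval lay above those of Sol and Dia and overlapped that of Quad. At the outer start the scores were 6.25 in EDL and 5.51 in Quad, with 6.40 in Sol and 6.55 in Dia, at percentiles 42.1, 36.4, 41.6 and 39.2. These peaks were centred 125 to 184 bp after the start and were annotated as 5′ UTR, since the authors' promoter class ended at 100 bp. At the inner start EDL was highest and Dia lowest, and at the outer start the order was another.

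The other Rxrg regions were found in EDL or Quad and not in Sol or Dia. Both muscles shared a region 9.4 kb before the outer start, at percentile 63.9 in EDL and 64.9 in Quad. The Quad list alone had a peak 2139 bp after the inner start, at percentile 32.4. Downstream of the gene an EDL peak at percentile 20.6 and a Quad peak at percentile 53.3 lay 35 bp apart without touching. From there the nearest peaks of Sol and Dia were 15.4 kb to 15.7 kb away and named for Lmx1a.

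Dio2 lies at chr12:90724552-90738438 on the reverse strand, and none of its 11 peaks was inside the gene body of 13.9 kb. All were annotated as intergenic. The nearest to the start lay about 1.6 kb upstream, outside the promoter class, which begins 1 kb upstream, and was listed in EDL at percentile 28.6 and in Quad at 38.2. In Sol the nearest peak to the Dio2 start was 19.4 kb away, and in Dia 131 kb. Counted from the start of the gene body, a peak 18.9 kb past it, beyond the 3′ end, was shared by EDL, Quad and Sol at percentiles 1.54, 4.70 and 8.21. EDL and Quad shared one 39.1 kb past the start at 28.6 and 23.4. Quad, Sol and Dia shared one 130.4 kb past it at percentiles 23.4, 29.3 and 8.04. A peak 135.6 kb upstream of the TSS was listed in Dia alone, at percentile 50.6, the strongest of the gene. No Dio2 peak of EDL, Quad or Sol was among the 20000 highest-scored of its list, whereas both Dia peaks were. The Dia list is close to that length, and the weaker of the pair had the score at the limit, 4.53, where peaks of equal score were ordered by position.

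**Figure D3:**
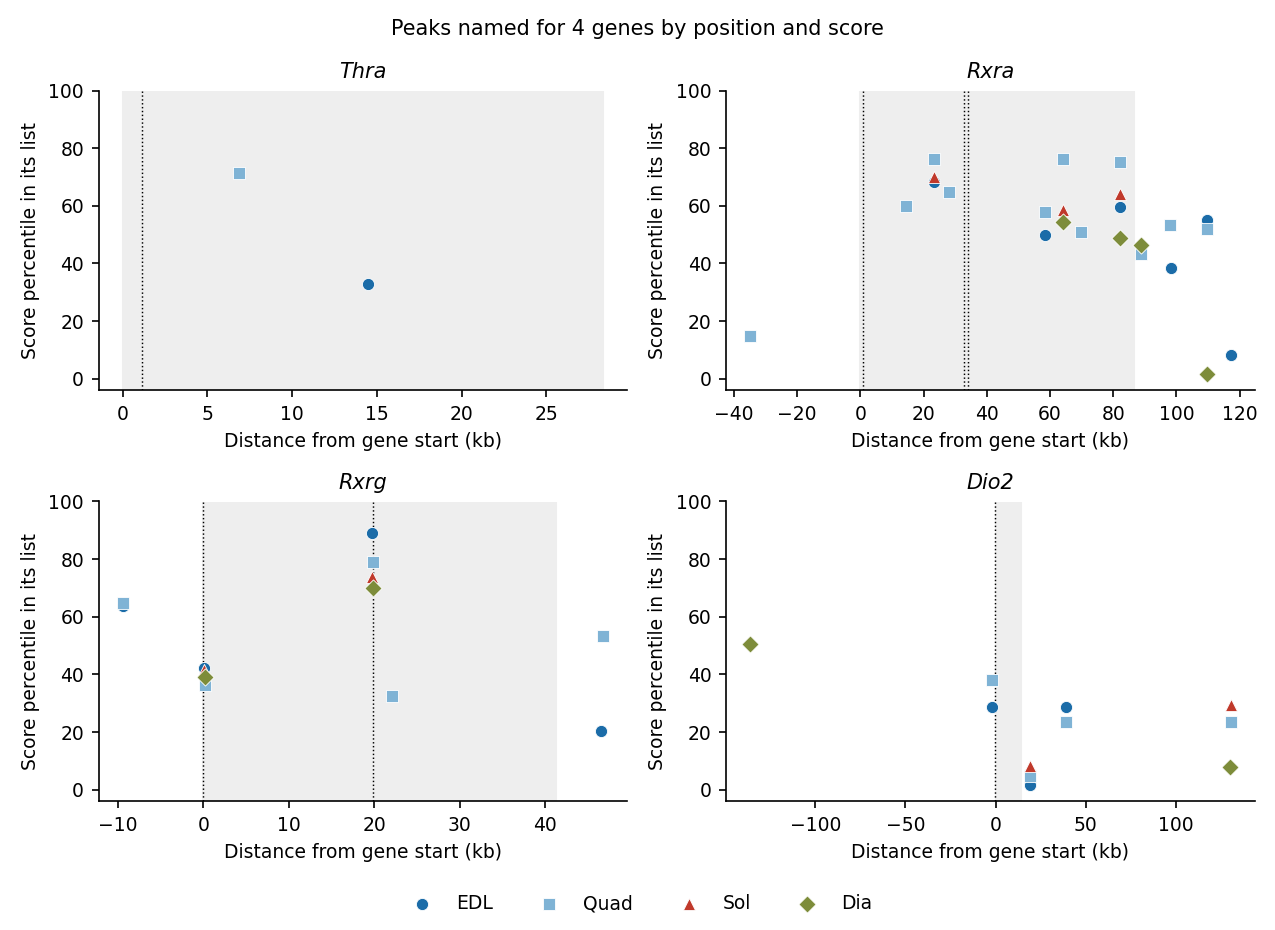
Peaks named for Thra, Rxra, Rxrg and Dio2 by distance of the peak centre from the start of the gene body (horizontal axis, kb, negative upstream) and score percentile within their list (vertical axis), with 1 symbol per muscle. Grey bands are gene bodies and dotted lines RefSeq starts, symbols that coincide hide each other in part, and Rxra shows Quad squares at most positions while Dio2 shows no peak within its gene body.

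Ncor1, the corepressor, lies at chr11:62316426-62458541 on the reverse strand and had a promoter region in all 4 lists. The scores were 12 (10.01 to 14.3) in EDL and 14.0 (11.5 to 16.8) in Quad, with 14.6 (12.4 to 17.1) in Sol and 11.2 (9.20 to 13.5) in Dia. All 4 intervals overlapped. The second Ncor1 peak was listed in Sol, in intron 1 at 12.6 kb, at percentile 5.06 with 41 inferred tags. Its excess of 1 peak in Sol over Quad therefore rested on a peak near the lower end of the Sol list, and it was gone with 20000 peaks per list. A peak named for another gene also overlapped the far end of the Ncor1 body in EDL, Quad and Dia, so that by overlap with the gene body, whatever the name, each muscle had 2.

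The 7 genes fell into those with a promoter peak in every list and those with none. Thrb, Rxrb, Rxrg and Ncor1 had one in all 4 muscles, 4 of 7 genes, beside 40.8% of the 17157 genes with any peak. Thra, Rxra and Dio2 had none in any list, 3 of 7, beside 35.3%. For Rxra the start of variant 1 was 13.6 kb from the nearest peak in Quad, 22.5 kb in EDL and Sol and 63.1 kb in Dia. The starts of variants 2 and 3 were 4.86 kb and 6.15 kb from a peak in Quad. The promoter peaks were strong within their lists, with percentiles from 69.8 to 94.5, and the median of the 4 was 87.6 in EDL and 89.3 in Quad, with 86.4 in Sol and 79.8 in Dia. The median of all promoter peaks was 76.3, 81.3, 75.7 and 74.1 in the same order.

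Away from promoters, the regions of these genes were seldom common to all muscles. Of the 45 regions 7 were found in all 4 muscles, which is 15.6% (95% Wilson interval 7.75% to 28.8%), beside 26.9% of all merged regions. In 1 muscle 23 of 45 were found, 51.1% (37.0% to 65.0%), beside 42.6%. The 4 regions with a promoter peak were all shared by the 4 muscles, beside 66.1% of such regions over all genes. Of the 41 without one, 3 were shared by all, or 7.32% (2.52% to 19.4%), beside 16.0%. These were the 2 intronic Rxra regions and the outer start of Rxrg. The interval of the non-promoter share included the overall share. These intervals take regions as independent, although 16 of the 45 were at Thrb and 13 at Rxra, so they may be too narrow. Because the counts of Sol and Quad entered the choice of the genes, nothing is read from these shares. Regions of 1 muscle were most often those of Quad, 10 of 23, then Sol with 6, EDL with 5 and Dia with 2. Over all merged regions Quad alone also came first, with 22.7%, followed by Sol with 8.62%, EDL with 6.71% and Dia with 4.61%, and the 10 Quad regions of 45 were close to that share. All 6 of Sol alone were at Thrb or Ncor1, while those of Quad alone were spread over Thra, Thrb, Rxra and Rxrg.

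**Figure D4:**
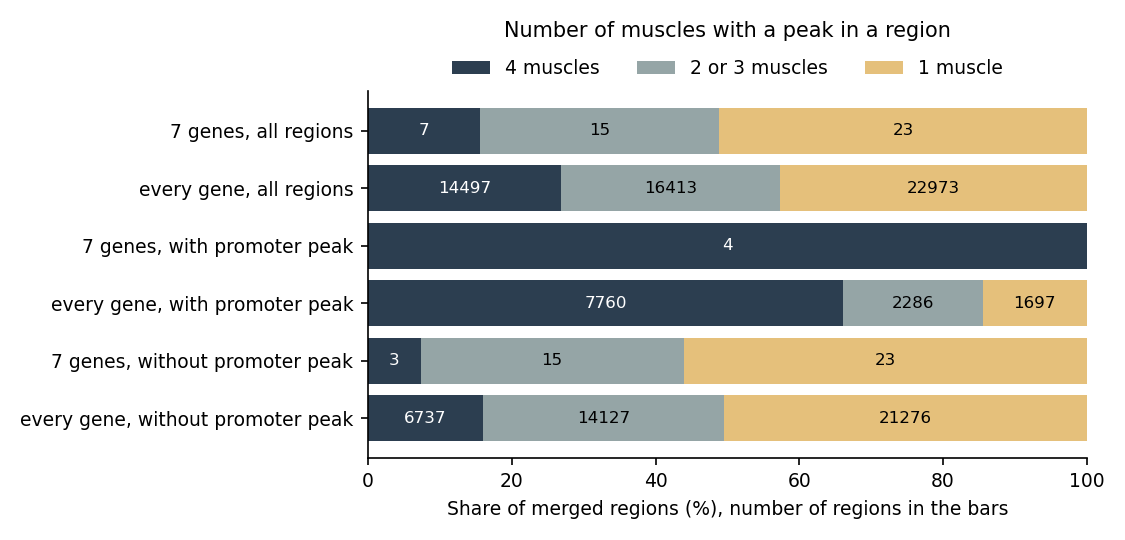
Share of merged regions (horizontal axis, %) found in 4 muscles, in 2 or 3, or in 1, for regions of the 7 genes and of every gene, in total and split by whether a region holds a promoter peak. The numbers in the bars are regions: 7 of 45 regions of the 7 genes were found in all 4 muscles, including all 4 with a promoter peak, and 23 in 1 muscle.

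In each of the 6 pairs of lists, smaller shares of peaks overlapped at these genes than over all peaks. Of the 22 EDL peaks 68.2% overlapped a Quad peak and of the 29 Quad peaks 51.7% overlapped an EDL peak, beside 80.8% and 60.4% over all peaks. Between Quad and Sol the shares were 41.4% of 29 and 57.1% of 21, beside 54.0% and 75.6%. Between Sol and Dia they were 47.6% of 21 and 66.7% of 15, beside 57.9% and 77.2%. Between EDL and Dia, the pair without Sol or Quad, they were 40.9% of 22 and 60% of 15, beside 55.4% and 77.3%. The peaks lie at 7 genes and are not independent. The counts of Sol and Quad entered the choice of the genes, so nothing is read from the pairs with either list. Promoter peaks were a smaller share at these genes than in the lists, and overlap without them was not counted by pair.

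By annotation, 14 of the 21 Sol peaks were intronic, 66.7%, beside 33.1% of the Sol list. Of these 14, 10 were the Thrb peaks whose number was known when the genes were chosen, so nothing is read from this share. In EDL the intronic share was 40.9% of 22, in Quad 44.8% of 29 and in Dia 33.3% of 15, beside 34.3%, 37.3% and 26.6%. Intergenic peaks were 8 in EDL and 11 in Quad, with 2 in Sol and 5 in Dia, or 36.4%, 37.9%, 9.52% and 33.3%, beside 29.9%, 31.7%, 30.1% and 26.8% of the lists. The median distance to the TSS of peaks outside promoters was 34.8 kb in EDL and 26.9 kb in Quad, with 47.7 kb in Sol and 54.5 kb in Dia, beside 24.1, 25.4, 25.2 and 22.8 kb for each list. The median percentile of such peaks was 40.2, 43.4, 33.4 and 39.2, beside 38.3, 40.0, 38.2 and 34.1.

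The letters of the best-scored peak of each region were compared with those of all 53857 regions on assembled chromosomes, both strands searched. The half-site AGGTCA was present in 9 of 45, 20% (10.9% to 33.8%), beside 15.7%. Without promoter regions it was 7 of 41, 17.1%, beside 18.0%. The repeat with 4 bases between was in 1 of 45, beside 3.23%, and that with 1 base in 2 of 45, beside 3.29%. A MEF2 match was in 3, beside 3.82%, CAGCTG in 13, beside 20.1%, and TGGAAA in 11, beside 18.1%. The letters TGANTCA, wider than the AP-1 site, were in 1 of 45, or 2.22% (0.393% to 11.6%), beside 9.35%. That region was one of Dio2. The best-scored peak of the Thrb region at 242 kb was that of Dia, which did not hold these letters. Each of the 7 Wilson intervals included the overall share, and these too take regions of the same gene as independent. The repeats contain half-sites in exact or inexact form and are not independent of them. The GC content of the 45 regions had a median of 52.2%, beside 52.9% overall.

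Genes that act with these receptors were counted as lists, beside the 13% of all genes with more peaks in Sol and the 47.6% with more in Quad. Of 7 coactivator genes none held more peaks in Sol than in Quad and 5 held more in Quad, with 29 peaks in Quad and 14 in Sol over the list. At Crebbp, an acetyltransferase, 5 peaks were listed in Quad and 1 in Sol, at Ncoa3 10 and 6, and at the methyltransferase gene Carm1 4 and 1. Of 11 partner receptors 1 held more in Sol and 6 in Quad, led by Pparg with 6 and 3, Rarb with 5 and 3 and Rarg with 3 and 1. Of 11 genes of retinoid metabolism 8 had a peak in Sol or Quad, none held more in Sol and 6 held more in Quad, among them Cyp26b1, which degrades retinoic acid, with 6 peaks in Quad and 1 in Sol. Dhrs3 had 14 and 10, and Cyp26a1 2 and 0. Of 8 genes of hormone transport and conversion 5 had a peak in Sol or Quad, of which 1 held more in Sol and 4 in Quad, with Slc7a8 at 5 and 2. The deiodinase genes Dio1 and Dio3 and the hormone-binding gene Crym had no peak in any list.

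Of 11 genes known to respond to thyroid hormone, 3 held more peaks in Sol and 6 more in Quad, and the list had 33 peaks in EDL and 44 in Quad, with 37 in Sol and 28 in Dia. Klf9 had 10 in Quad and 7 in Sol, Ucp3 7 and 4, and Atp2a2, the calcium pump of slow and heart muscle, 1 and 3. With 20000 peaks per list 6 of the 11 held more in Sol and 4 more in Quad, beside 23.3% and 23% of all genes. The balance over all genes thus moved towards Sol at that length as well, from 13% against 47.6%. Of 7 coactivator genes with a peak in Sol or Quad at that length, 1 held more in Sol and 2 more in Quad. Of 10 partner receptors these were 1 and 2, of 4 genes of retinoid metabolism 0 and 3, and of 4 genes of transport 2 and 2. The median of Sol minus Quad over the genes with a peak in either was then 1 for the responsive genes, 0 for coactivators and partners, -1 for retinoid metabolism and -0.5 for transport, beside 0 over all genes.

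The genes whose counts in EDL, Quad, Sol and Dia were closest to those of Thrb, by the sum of absolute differences over the 4 lists, were Nuak1 with 6, 6, 9 and 5 peaks, A330102I10Rik with 5, 6, 9 and 4, Esrrg with 5, 8, 10 and 4, Tcf12 with 6, 6, 8 and 5, and Disp1 with 6, 7, 9 and 5. The sums were 3 for Nuak1 and A330102I10Rik and 4 for the others, over 4 muscles. With 20000 peaks per list, where Thrb had 4, 1, 6 and 4, Esrrg and Tcf12 each had 4, 2, 6 and 4. Esrrg encodes the orphan nuclear receptor oestrogen-related receptor gamma. All 5 had more peaks in Sol than in Quad, which follows from the likeness to Thrb that chose them.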

How the data were processed

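ATAC-seq peak lists of EDL, Quad, Sol and Dia were analysed, 1 pooled library each, grouped by sample title. The authors aligned read pairs to mm10 with Bowtie2, kept at most 1 tag per position, called fixed-width peaks in HOMER and annotated each to its nearest TSS, with promoters from 1 kb upstream to 100 bp downstream. The deposited peak score is a tag count scaled by library size, and the deposited focus ratio, a fraction, entered no reported value. A Tn5 offset and the removal of mitochondrial reads are not given in the sources used here. The study's methods describe peak calling on single replicates, whereas the labels call each library pooled, and how the 1 list per muscle was joined is not given in the sources used here.

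Analyses used Python 3.11.15 with pandas 2.3.3. Peaks sharing at least 1 bp were merged across lists. The step between scores below 10 gave the worth of 1 tag. For all 87 peaks the start site that the distance column implies was within 100 bp of the RefSeq start. Motifs were read from the best-scored peak of each region in GRCm38.p6. Shares carry 95% Wilson intervals and scores exact Poisson intervals, which cover counting error only. The Wilson intervals take regions as independent, which regions of the same gene are not. Scripts were tested on simulated lists. The members and gene lists were chosen with earlier results of these data known. Named were the 7 genes with every peak, at most 3 genes per list by the largest difference between Sol and Quad, and the 5 genes most like Thrb. The sequence rule also covered the strongest region outside promoters of each other gene, whose letters are not printed. A list of other corepressor genes is not reported here. Alternatives were 20000 peaks per list, the upper 50% by score, a limit of 50 kb from the TSS, overlap with the gene body and 2 kb before it, 50% reciprocal overlap, joining within 500 bp, and cropping to 188 bp.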

Additional observations from a re-analysis of the deposited data

How the results depend on the processing

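No paired analysis was possible because each muscle had 1 library, and no replicate could be left out. Of 49 values of the main counts and shares under an alternative, 36 stayed within 1.5 times the reported value (for the half-site share, within its interval) and 13 moved. All the promoter counts were among those that stayed, and the limit of 50 kb from the TSS could not change them. With 20000 peaks per list the 7 genes had 16 peaks in Quad, 13 in Sol and 29 merged regions. In the upper 50% of each list they had 9 peaks in EDL, 16 in Quad, 7 in Sol, 7 in Dia, 18 merged regions and 9 regions of 1 muscle. Within 50 kb of the assigned TSS they had 8 peaks in Dia, 29 merged regions and 13 regions of 1 muscle. By overlap with the gene body or the 2 kb before it they had 19 peaks in Quad. The first 3 of these alternatives keep fewer peaks by construction. The last drops peaks outside the gene and counts peaks of any name, which added 1 peak at Ncor1 in EDL, Quad and Dia. Of the counts of single genes per muscle, 69 of 112 stayed within that range.

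The share of regions found in all 4 muscles was below that of all regions in each setting, from 12.2% beside 19.8% with 50% reciprocal overlap to 27.8% beside 35.1% in the upper 50% of the lists. The share found in 1 muscle was above that of all regions in each setting, but by amounts that differed, from 40.5% beside 39.2% with peaks within 500 bp joined to 55.2% beside 34.5% with 20000 peaks per list. The settings cut or join the same peaks again, and the counts of Sol and Quad entered the choice of the genes. Nothing is therefore read from these shares. Sol minus Quad stayed negative for Rxra, between -8 and -4 peaks. Of the genes with a peak in either list, 47.6% had that sign in the full lists and 23% with 20000 peaks per list. For Thrb the difference was 5 or 6 by list length or gene body and 0 in the upper 50% or within 50 kb. The upper 50% begins at a different score in each list. Nothing is read from these differences, since the counts of Sol and Quad entered the choice of the genes. The number of libraries, the lists' different thresholds and widths, and the assignment of each peak to 1 nearest gene limit what these counts show.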
